A study of Mus musculus and Rattus norvegicus with 28 samples.

Results

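The insulin-like growth factor (IGF) axis was followed here through 10 genes, namely the ligands Igf1 and Igf2, the imprinted non-coding RNA H19 that neighbours Igf2, the receptors Igf1r and Igf2r, the binding proteins Igfbp3, Igfbp4 and Igfbp5, and the receptor substrates Irs1 and Irs2. They were taken by gene symbol, by a rule that uses no measured value though the axis was picked with earlier results of these data known, and all 10 were found among the 55450 genes of the mouse files. In the rat files, 9 of the 10 were found among 32623 genes, and H19 was not matched by symbol there and is not analysed in rat. All 10 mouse members were among the 13979 mouse genes, and all 9 rat members among the 13625 rat genes, that passed the expression filter and were tested.

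IGF1 and IGF2 are secreted peptides that bind the receptor tyrosine kinase encoded by Igf1r, which phosphorylates the docking proteins IRS1 and IRS2 and so engages PI3K and AKT. The product of Igf2r takes IGF2 to the lysosome and carries no kinase, and the IGF-binding proteins hold the ligands in the extracellular space. Igf2 and H19 are read from opposite parental alleles of the same imprinted cluster, whose control region upstream of H19 is bound by the insulator protein CTCF on the maternal allele. In rodents, IGF2 is the main fetal ligand, and IGF1 takes over after birth under the control of growth hormone.

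The mouse samples were cells isolated as cardiomyocytes from left ventricles of C57BL/6 mice of both sexes at embryonic day 18.5 (E18.5) and at postnatal days 1, 3 and 7 (P1, P3 and P7), with 2 RNA-seq and 2 ATAC-seq libraries at each time point. ATAC-seq marks accessible chromatin by where a transposase inserts. The rat samples were ventricular cells of P1 Sprague Dawley rats, plated and, a day later, given 100 nM trichostatin A (TSA, a histone deacetylase inhibitor) or its solvent DMSO, with 3 RNA-seq libraries each. All mouse groups share the same enzymatic digestion and a pre-plating step meant to remove attached non-muscle cells, and no animal carried a transgene. The RNA-seq libraries held about 29300000 to 37500000 aligned reads in mouse and 28200000 to 38500000 in rat, as worked out from coverage and FPKM.

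The labelled cell type was checked against marker genes before the members were read. The summed level of 10 cardiomyocyte markers was 15736 to 19576 FPKM (fragments per kilobase of transcript, scaled to library size) in the E18.5 libraries, 7864 to 12869 in those of P1, 4955 to 5592 in those of P3 and 595 to 1392 in those of P7, and 10 of 10 were lower at P7. The sum of 10 fibroblast markers was 437 to 446 FPKM in E18.5 libraries and 2921 to 3643 in P7 libraries, with 10 of 10 higher. Among 9 smooth muscle and pericyte markers 5 were higher and 2 lower at P7, and their sum was 418 to 545 FPKM in E18.5 libraries and 1669 to 1877 in P7 libraries. The 7 erythroid markers, all of them lower at P7, summed to 29046 to 35395 FPKM at E18.5 and to 4.70 to 41.0 at the later time points. The sum of 8 macrophage markers was 44.7 to 48.9 FPKM in E18.5 libraries and 110 to 186 in the later ones, and that of 6 epicardial markers 133 to 136 and 148 to 316. The sums of 8 endothelial markers overlapped between E18.5 (247 to 456 FPKM) and the later time points (281 to 489). All but the endothelial sums differed without overlap between E18.5 and the later libraries, and the part of any of them in the results was not tested. In bulk samples, fewer cells of a type and less RNA per cell cannot be told apart.

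The sequences that bear on the chromatin data are shown first. Upstream of H19, the letters of a CTCF core motif (CCGCGNGGNGGCAG, searched on both strands, with N for any base) occurred 3 times within an interval of 131288 bases that holds H19, Igf2 and 20 kb to either side. All 3 were on the minus strand, the strand of H19, at 2179, 2634 and 3904 bases upstream of the start of its most abundant transcript. Each is printed 5′ to 3′ on that strand from the mm10 assembly, with the motif in capitals, because peaks listed at P3 lay over or between the first and the second. The third match is shown beside them for its letters and lay in no peak.
H19 upstream match at chr7:142580296-142580335: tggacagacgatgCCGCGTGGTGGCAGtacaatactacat
H19 upstream match at chr7:142580751-142580790: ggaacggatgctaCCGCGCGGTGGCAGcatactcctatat
H19 upstream match at chr7:142582021-142582060: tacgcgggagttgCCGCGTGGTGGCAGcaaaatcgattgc

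The promoters of Irs1 and Irs2, which held a peak in all 8 ATAC-seq libraries, are shown by the stretch that every library's peak covered, leaving out bases inside annotated exons. Capitals mark matches of an E-box (TCACGTG) and of a forkhead motif (TGTTTTG), both searched on both strands and both chosen after these sequences had been seen. In Irs1 the 2 matches overlap.
Irs1 at chr1:82291515-82291703, minus strand: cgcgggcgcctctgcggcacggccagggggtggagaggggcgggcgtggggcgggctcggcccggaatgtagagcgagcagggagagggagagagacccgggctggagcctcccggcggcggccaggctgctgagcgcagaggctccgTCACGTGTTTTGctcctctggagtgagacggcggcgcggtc
Irs2 at chr8:11008930-11009075, minus strand: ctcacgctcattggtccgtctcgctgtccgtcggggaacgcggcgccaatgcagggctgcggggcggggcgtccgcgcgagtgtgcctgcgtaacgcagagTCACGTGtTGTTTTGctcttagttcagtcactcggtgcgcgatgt

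The E-box began at position 149 of 189 in the Irs1 stretch and at position 102 of 146 in the Irs2 stretch, counted from the 5′ end. The forkhead match began at positions 154 and 110. The longest runs shared by both stretches were GTCACGTGTT and TGTTTTGCTC, of 10 bases each. Of 32851 promoters of 300 bases in RefSeq (assembly of the mm10 build), 3.77% held the E-box letters, 6.28% the forkhead letters and 0.207% (68 promoters) both. As the letters were chosen after the sequences were seen, these shares do not measure how unusual the matches are.

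The first comparison asked how the ligands changed between the fetal heart and the first postnatal week. H19 and Igf2 fell between E18.5 and P1 and stayed low, while Igf1 rose by P7, so that the ligand transcripts moved in opposite directions (the plot of mouse levels by time point). H19, a spliced non-coding RNA, was at chr7:142575529-142578143 on the minus strand. Its level was 577 and 611 FPKM in the E18.5 libraries, 51.2 and 99.7 in those of P1, 119 and 137 in those of P3, and 55.2 and 58.0 in those of P7. Both E18.5 libraries lay above all 6 later libraries. The fall was 8.21-fold at P1 (log2 fold change -3.04, SE 0.26, adjusted p = 0.000162), 4.63-fold at P3 (-2.21, SE 0.26, adjusted p = 0.000382) and 10.3-fold at P7 (-3.37, SE 0.26, adjusted p = 3.5e-05), all from limma on log2(FPKM + 1) with Benjamini-Hochberg adjustment.

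Igf2, the fetal ligand, was at chr7:142650766-142666816 on the same strand, 72.6 kb from H19. It was at 102 and 309 FPKM in the E18.5 libraries, 22.5 and 38.5 in those of P1, 44.3 and 32.2 in those of P3, and 14.6 and 27.5 in those of P7. The E18.5 libraries differed by a wide margin from each other, and both lay above every later library. In limma the log2 fold change was -2.55 at P1 (SE 0.51, adjusted p = 0.00565), -2.20 at P3 (SE 0.51, adjusted p = 0.00835) and -3.08 at P7 (SE 0.51, adjusted p = 0.00133). The size rested on which E18.5 library was used: without replicate 1 the log2 values were -3.35, -3.00 and -3.88, and without replicate 2 they were -1.76, -1.41 and -2.29.

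The transcripts to which Igf2 reads were assigned also varied between libraries. The transcript ENSMUST00000105936.7 took 8.51% to 70.4% of the gene's FPKM, and ENSMUST00000000033.11 took 0.877% to 87.4%. Because these models differ in length, FPKM and read number did not move in step: the reads estimated from coverage were 7783 and 39171 at E18.5 but 7590 and 3984 at P3, so E18.5 replicate 1 and P3 replicate 1 were close by that measure. In limma-voom on those reads, Igf2 did not pass at P3 (log2 fold change -1.86, adjusted p = 0.0504), where the adjusted p ran from 0.00337 to 0.0504 over all alternatives. For H19 the estimated reads kept both E18.5 libraries (35926 and 42628) above all later ones, of which the highest was 9945.

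Igf1, the main postnatal ligand, was at chr10:87858265-87937042 on the plus strand. It was at 3.63 and 3.32 FPKM in the E18.5 libraries, 4.79 and 4.93 in those of P1, 7.45 and 8.16 in those of P3, and 7.87 and 9.28 in those of P7. The levels stepped up without overlap from E18.5 to P1 and from P1 to P3, and P3 and P7 overlapped. The rise passed the test at P7 (2.14-fold, log2 fold change 1.095, SE 0.15, adjusted p = 0.000527 by limma). At P3 it had an adjusted p of 0.00131 by limma, with a log2 fold change of 0.98 (SE 0.15) that was short of the size threshold of 1. It passed there with a pseudocount of 0.1 (1.145), with TPM (1.29), without E18.5 replicate 1 (1.03) and without P3 replicate 1 (1.03). Leaving out P7 replicate 2 took the P7 value to 0.99, under that threshold, and it was 0.999 with median-of-ratios size factors and 0.78 in limma-voom, so that Igf1 was called in none of these.

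The ratio of Igf2 to Igf1, both in FPKM and so per transcript length, was 28.1 and 93.2 in the E18.5 libraries, 4.69 and 7.81 in those of P1, 5.95 and 3.94 in those of P3, and 1.86 and 2.96 in those of P7. Igf2 thus stayed the more abundant ligand transcript in all 8 mouse libraries, and the ratio at E18.5 did not overlap with any later value. The ratio of H19 to Igf2 ranged from 1.98 to 5.66 over the 8 libraries, both extremes being at E18.5.

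**Figure D1:**
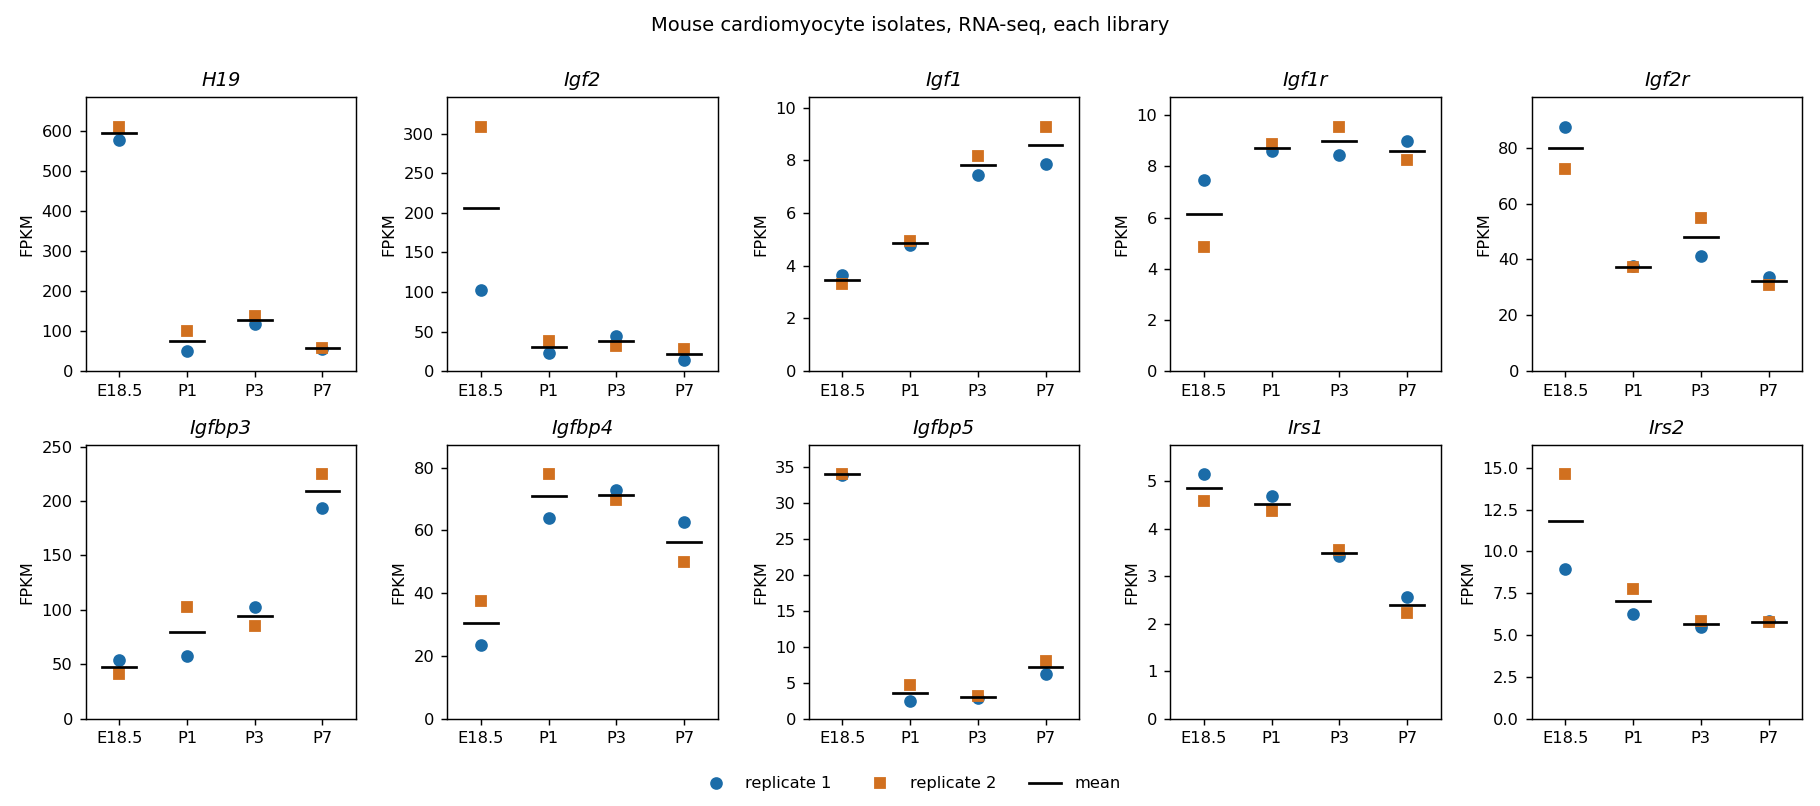
FPKM of each member (y axis, linear from 0, with its own range in each panel) in the 8 mouse RNA-seq libraries by time point (x axis); symbols are the 2 replicates and bars their mean. H19, Igf2 and Igfbp5 sit highest at E18.5, while Igf1 and Igfbp3 reach their highest means at P7.

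Of the receptors, Igf2r fell and Igf1r was not called. Igf1r, the signalling receptor, was at chr7:67952827-68233668 on the plus strand. It was at 7.47 and 4.84 FPKM at E18.5, and at 8.25 to 9.56 in the 6 postnatal libraries, all of them above both E18.5 libraries. None of the comparisons with E18.5 passed: the log2 fold changes were 0.47, 0.51 and 0.45 (SE 0.19 each) at P1, P3 and P7, with limma adjusted p of 0.0863, 0.0602 and 0.0802. The 95% interval at P7 ran from 0.0046 to 0.90. The size rested on the E18.5 libraries: without replicate 1 the values were 0.74, 0.78 and 0.72, with limma adjusted p of 0.0128, 0.00859 and 0.00927, and without replicate 2 they were 0.20, 0.24 and 0.18, with 0.343, 0.249 and 0.348. None of these reached the size threshold.

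Igf2r, the clearance receptor, was at chr17:12682406-12769664 on the minus strand. Its level was 87.6 and 72.3 FPKM in the E18.5 libraries, 37.6 and 37.2 in those of P1, 41.1 and 54.99 in those of P3, and 33.9 and 30.7 in those of P7. It was thus lower in every later library than in both E18.5 libraries. The fall passed at P1 (2.097-fold, log2 fold change -1.07, SE 0.17, adjusted p = 0.00184) and P7 (2.42-fold, -1.28, SE 0.17, adjusted p = 0.000373). At P3 the log2 value was -0.73 (SE 0.17, limma adjusted p = 0.00742), short of the size threshold. At P1 the call was lost without E18.5 replicate 1 (-0.93) and with TPM (-0.84).

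Some members share their place with a gene on the other strand, and the RNA libraries did not keep strand, so reads in the overlaps cannot be told apart. Airn, the antisense RNA of the Igf2r imprinted domain, was listed at 15.1 and 8.47 FPKM at E18.5 and at 4.40 to 6.22 in the later libraries. Igf2os, antisense to Igf2, was at 3.26 and 2.13 FPKM at E18.5 and its lowest value over the 8 libraries was 0.0634. The other overlapping genes on the opposite strand were at or near 0, namely Igf1os (up to 0.038 FPKM), 9530052E02Rik beside Irs2 (up to 0.117), and Gm9747 in Irs1 and both Gm27786 and Gm27483 in H19 (each listed at 0). On the same strand as their hosts, the miRNA genes Mir675 in H19 (0.161 to 0.215 FPKM) and Mir483 in Igf2 (0 to 0.129), and Gm49394 over Igf2 (0), were not distinguished from them by these libraries.

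The binding proteins went separate ways. Igfbp3, which codes for the main IGF carrier of the circulation, lay at chr11:7206086-7213923 (minus strand), and was at 54.1 and 40.6 FPKM in the E18.5 libraries, 57.3 and 102.7 in those of P1, 102.97 and 84.9 in those of P3, and 194 and 225 in those of P7. Both P7 libraries lay above all others, and it was the most abundant of the 10 transcripts in both. The rise at P7 was 4.38-fold (log2 fold change 2.13, SE 0.27, adjusted p = 0.00031 by limma). At P3 the log2 value was 0.98 (SE 0.27, limma adjusted p = 0.0165), and at P1 it was 0.70 (SE 0.27, limma adjusted p = 0.0682), neither of them called. Without P1 replicate 1 the P1 value was 1.11 and passed (limma adjusted p = 0.0109), and without P1 replicate 2 it was 0.28 (0.343). The P3 value passed with TPM (1.24), without E18.5 replicate 1 (1.184) and without P3 replicate 2 (1.118).

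Igfbp4, which codes for a binding protein that blocks IGF action until a protease cuts it, lay at chr11:99041244-99054392 (plus strand). It was at 23.5 and 37.5 FPKM in the E18.5 libraries, 64.1 and 78.0 in those of P1, 72.8 and 69.7 in those of P3, and 62.6 and 49.8 in those of P7. All 6 postnatal libraries lay above both E18.5 libraries. It rose 2.34-fold at P1 (log2 fold change 1.22, SE 0.22, adjusted p = 0.00363) and 2.35-fold at P3 (1.23, SE 0.22, adjusted p = 0.00258), and at P7 the log2 value of 0.89 (SE 0.22, limma adjusted p = 0.00977) was short of the threshold. Without E18.5 replicate 1 the values were 0.90 at P1 and 0.91 at P3, under the threshold at both, and 0.56 at P7. With all libraries kept, the P7 value passed with TPM and in limma-voom. It also passed without E18.5 replicate 2 (1.22) and without P7 replicate 2 (1.05).

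Igfbp5, which codes for the most conserved of the binding proteins, lay at chr1:72857932-72874884 (minus strand). Its level was 33.9 and 34.0 FPKM in the E18.5 libraries, 2.48 and 4.67 in those of P1, 2.93 and 3.09 in those of P3, and 6.24 and 8.06 in those of P7. The later libraries all lay far under E18.5, and both P7 libraries lay above those of P1 and P3. The fall was 8.72-fold at its deepest, at P3 (log2 fold change -3.12, SE 0.23, adjusted p = 6e-05 by limma), and 4.32-fold at P7 (-2.11, SE 0.23, adjusted p = 0.000171 by limma).

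The docking proteins drifted down without passing in the main fit. Irs1 (chr1:82233101-82291416, minus strand) was at 5.15 and 4.58 FPKM in the E18.5 libraries, 4.68 and 4.37 in those of P1, 3.42 and 3.56 in those of P3, and 2.57 and 2.22 in those of P7. Its log2 fold change at P7 was -0.79 (SE 0.15, limma adjusted p = 0.00296), within the size threshold. Over all alternatives this P7 value ran from -1.03 to -0.66, and it passed at the far end of that range. At P1 it was -0.08 (SE 0.15), and with TPM this turned to 0.12. Irs2 (chr8:10984681-11008458, minus strand) was at 8.98 and 14.6 FPKM in the E18.5 libraries, 6.28 and 7.75 in those of P1, 5.47 and 5.82 in those of P3, and 5.82 and 5.79 in those of P7. The log2 values for Irs2 were -0.65 at P1, -0.91 at P3 and -0.88 at P7 (SE 0.22 each), with limma adjusted p of 0.0464, 0.00993 and 0.0102. Without E18.5 replicate 1 the values were -0.97, -1.23 and -1.20, of which those for P3 and P7 passed. Without E18.5 replicate 2 they were -0.32, -0.59 and -0.55, none of which passed. With all libraries kept, the P3 value of Irs2 passed with a pseudocount of 0.1 and with median-of-ratios size factors.

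**Figure D2:**
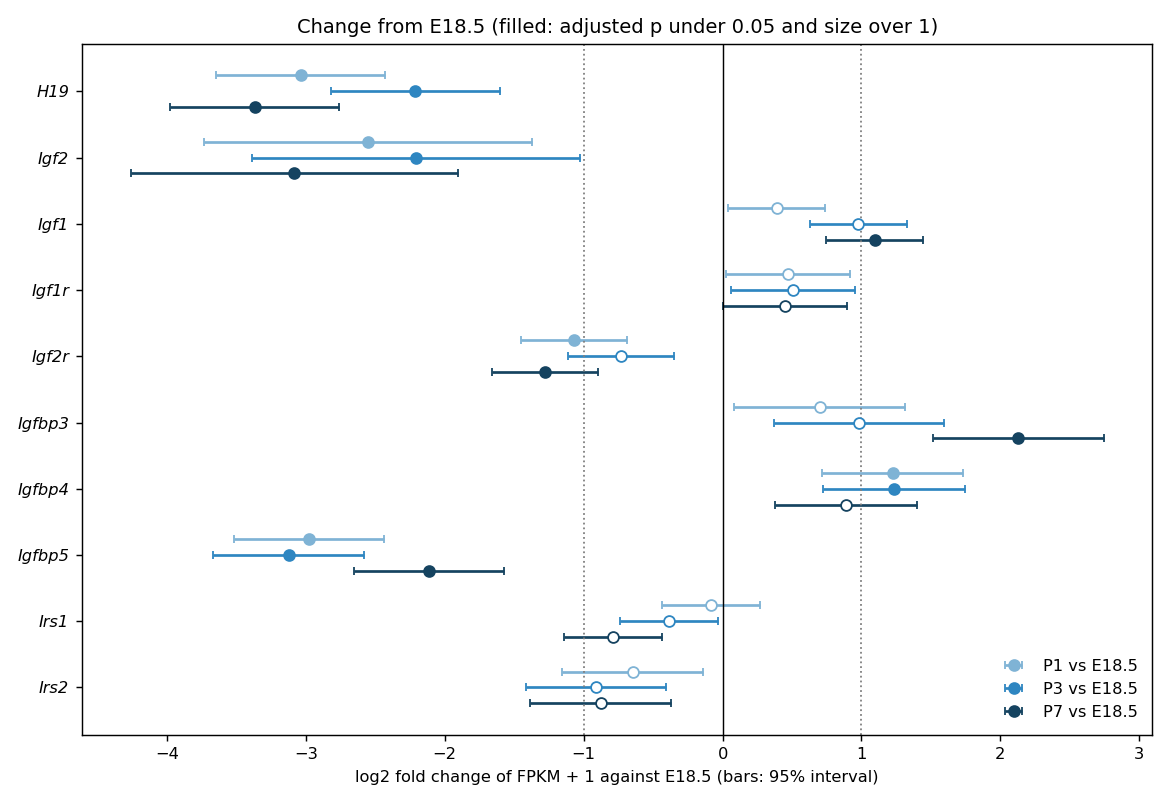
Log2 fold change of FPKM + 1 against E18.5 (x axis) for each member (y axis) at P1, P3 and P7; bars are 95% intervals from limma, dotted lines the size threshold, and filled symbols the calls. H19, Igf2 and Igfbp5 are filled at all 3 time points, Igf1r and both Irs genes at none.

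By count, 1 of 10 members was called higher and 4 lower at P1, 1 higher and 3 lower at P3, and 2 higher and 4 lower at P7. Over all 13979 genes tested, 10.1% were called higher and 6.06% lower for P1, 13.0% and 8.88% for P3, and 15.4% and 12.3% for P7. The median log2 fold change of the members was -0.37, -0.56 and -0.83 at the 3 time points, beside 0.15, 0.16 and 0.14 for all genes tested. These comparisons share their E18.5 libraries. With TPM, the median over all genes was 0.38, 0.41 and 0.40, and the share of calls that were higher went from 62.5% to 77.3% for P1, from 59.4% to 74.4% for P3 and from 55.7% to 68.1% for P7. With median-of-ratios size factors that share was 50.7% at P1. Taken against the median of all genes, the P7 log2 changes were -3.51 for H19, -3.23 for Igf2, -2.26 for Igfbp5, -1.42 for Igf2r, 0.95 for Igf1 and 1.99 for Igfbp3.

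Within the first postnatal week, fewer members moved. Between P1 and P3 none of the 10 was called by limma, nor by limma-voom. Of all 13979 genes, 1577 had an unadjusted limma p under 0.05, and so did 2 of the 10 members. These were H19 (log2 fold change 0.83, adjusted p = 0.307 by limma) and Igf1 (0.59, adjusted p = 0.246 by limma). Only 2 genes of all those tested (0.0143%) were called in that comparison. Between P1 and P7, Igfbp3 rose 2.70-fold (log2 fold change 1.43, SE 0.27, adjusted p = 0.00814 by limma), where 3.45% of all genes were called higher and 5.46% lower. That call was lost without P7 replicate 2 (1.32, adjusted p = 0.0606 by limma), and the adjusted p ran from 0.006 to 0.0606 over all alternatives. In the same comparison Igf1 (0.71), Irs1 (-0.70) and Igfbp5 (0.87) had limma adjusted p of 0.0151, 0.0158 and 0.0374 and log2 sizes under 1. Igfbp5 passed with a pseudocount of 0.1, in limma-voom and without P1 replicate 2 (1.22), and was at 0.52 without P1 replicate 1.

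Between P3 and P7, Igfbp3 (log2 fold change 1.15, SE 0.27) and Igfbp5 (1.01, SE 0.23) were called higher and H19 (-1.16, SE 0.26) lower. Their limma adjusted p were 0.0498, 0.0494 and 0.0469, at the edge of the threshold. Over all genes 1.35% were called higher and 2.20% lower. None of the 3 was called with any E18.5, P3 or P7 library left out, where the limma adjusted p ran from 0.073 to 0.325. The libraries of each of these genes did not overlap between P3 and P7, and the share of all genes for which that held was not counted.

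Genes with profiles most like the ligands were named by the root mean square difference of log2(FPKM + 1), each gene centred on its own mean over the 8 mouse libraries. Nearest to Igf1 among 13978 genes were Aida (0.083), Nectin1 (0.084) and Cdc42ep4 (0.086), where Igf1 itself varied by 0.45 around its mean. Aida, for instance, had means of 8.12 FPKM in E18.5 libraries, 11.2 in P1, 16.1 in P3 and 18.4 in P7 libraries. The nearest to Igf2 were Gm12439 (0.43), Otud1 (0.44) and Cd74 (0.44), against a spread of 1.28 for Igf2 itself, and H19 was in place 13 with 0.50. These are descriptions over 8 libraries that share their time points.

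Beyond the members, 61 further genes of the pathway were read in 6 lists, of which 55 were tested in mouse. At P1, 4 were higher and 3 lower, at P3 2 and 4, and at P7 3 and 4, with 48 not passing at P7. Of all genes tested, 10.1% were higher and 6.06% lower at P1, and 15.4% and 12.3% at P7. Among other binding proteins and their proteases (7 tested of 11, median log2 fold change 0.66), 1 was higher at P7, namely Igfbp7, a secreted protein that binds IGFs weakly. Its mean was 28.2 ± 5.89 FPKM (SD, n = 2) for E18.5, 256 ± 37.9 for P1, 374 ± 20.7 for P3 and 667 ± 33.3 for P7, which is a log2 fold change of 4.53 at P7 (SE 0.17, adjusted p = 2.93e-06 by limma). At P1, Igfbp7 and Htra1, a secreted protease (log2 fold change 1.34), were higher, and Stc1 (-1.79) and Stc2 (-1.51), whose products inhibit the proteases that cut binding proteins, were lower. The calls for Stc1 and Stc2 held at P3 (-1.57 and -1.91) and neither was called at P7 against E18.5. Htra1, Stc1 and Stc2, and Inppl1 and Socs1 below, were named after their values were seen.

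Among other receptor and adaptor genes, 4 of 7 tested were lower at P7, where 12.3% of all genes were, and 3 did not pass, with a median log2 fold change of -1.09. Grb14 and Grb10 code for adaptors that inhibit the insulin and IGF receptors, and Gab1 for a docking protein. Grb14 had a mean of 54.6 ± 15.8 FPKM (SD, n = 2) for E18.5 and 11.3 ± 1.997 for P7 (log2 fold change -2.16), Gab1 20.1 ± 1.73 and 5.80 ± 0.0777 (-1.63), and Grb10, which is also imprinted, 162 ± 34.3 and 72.8 ± 0.872 (-1.13). The 4th was Insr, the insulin receptor, at 7.89 ± 1.57 and 3.14 ± 0.0247 FPKM (-1.09), named after its value was seen. Their limma adjusted p were 0.000177, 0.000565, 0.00104 and 0.00375.

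Of 21 PI3K, AKT and mTOR genes tested, 20 did not pass at P7 and the median log2 fold change was -0.15. The exception was Pik3r2, a regulatory subunit of PI3K, with 11.5 ± 1.176 FPKM for E18.5 and 23.999 ± 1.03 for P7 (log2 fold change 1.004, limma adjusted p = 0.000444). None of 13 brakes and FOXO genes (median 0.13) and none of 3 genes for IGF2 mRNA-binding proteins (median 0.09) were called at P7. At P1, Inppl1, a lipid phosphatase gene, was called higher (log2 fold change 1.103) and Socs1, a gene for an inhibitor of cytokine signalling, lower (-1.15). In the growth hormone receptor arm, 1 of 4 was called (median 0.14). That was Ghr, the receptor through which growth hormone raises Igf1, which had 19.6 ± 2.55 FPKM for E18.5, 53.7 ± 1.89 for P1 and 50.9 ± 4.65 for P7 (1.34, SE 0.14, adjusted p = 0.000113 by limma).

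The ATAC-seq lists were then read for peaks within 2.5 kb of any annotated transcript start of the members (the grid of promoter peaks by library). Irs1, Irs2 and Igf1r held a peak in all 8 libraries. The remaining 7 members were listed in fewer, most of them at P3 or P7. With a peak in both libraries of a time point counted, 3 of 10 members had one for E18.5, 3 for P1, 8 for P3 and 6 for P7. Over all genes tested for expression the shares were 56.7% for E18.5, 41.3% for P1, 87.5% for P3 and 83.2% for P7. The lists held 13149 and 14910 peaks in the E18.5 libraries, 29281 and 19753 in those of P1, 95257 and 52040 in those of P3, and 49113 and 35898 in those of P7. The longer lists of P3 and P7 went with higher counts. Those of P1 were also longer than those of E18.5, with the same member count and a lower share of all genes. When each list was cut to its 13149 highest scores, 2 members had a peak in both libraries for E18.5, 2 for P1, 1 for P3 and 2 for P7, while 54.1%, 31.5%, 37.3% and 45.2% of all genes did. At equal list length the counts for P3 and P7 were thus no higher than those for E18.5. The Igf2 peaks of the P7 libraries lay at different places.

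The Irs1 peak spanned chr1:82290979-82291715 in E18.5 replicate 1 and chr1:82290910-82291749 in P7 replicate 2, and its fold enrichment over background, as the peak caller gave it, was 3.39 to 7.45 over the 8 libraries. It covered the stretch printed above in all 8 libraries and reached the annotated start in the E18.5, P3 and P7 libraries but in neither of P1. For Irs2, the peak at the RefSeq start, upstream of the GENCODE start, had a fold enrichment of 6.51 and 4.66 in the E18.5 libraries, 7.26 and 5.09 in those of P1, 4.78 and 8.19 in those of P3, and 4.79 and 5.25 in those of P7. These values overlapped between all time points, as did the peaks themselves. A further region in a coding exon of Irs2, chr8:11007030-11007584, was listed in both P3 and both P7 libraries and in none of E18.5 or P1. Igf1r had an upstream region, chr7:67950792-67952500, with 1 or more peaks in every library, though the E18.5 and P1 peaks within it did not overlap each other.

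Among the binding proteins, Igfbp4 had a peak over a coding exon, chr11:99047112-99047905, in 6 libraries (E18.5 replicate 2, P1 replicate 1, and both of P3 and of P7), and one at its own first exon, chr11:99041127-99041745, in both P3 and both P7 libraries. Igfbp5 had a peak in a coding exon, chr1:72873768-72874121, in P3 replicate 1 and both P7 libraries. It had none within 2.5 kb of a start at E18.5, where its RNA was at its highest. With a window of 5 kb, E18.5 replicate 1, P1 replicate 1 and P3 replicate 2 held one too. The region called for Igfbp3 in both P3 libraries, chr11:7212163-7212667, was intronic, with no peak listed at P7, where its RNA was highest. Igf2r was listed in both P3 libraries, at chr17:12769459-12769973 over its first exon. Igf1 was listed in both P3 libraries and in P7 replicate 1, with a shared stretch at chr10:87860698-87860889.

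**Figure D3:**
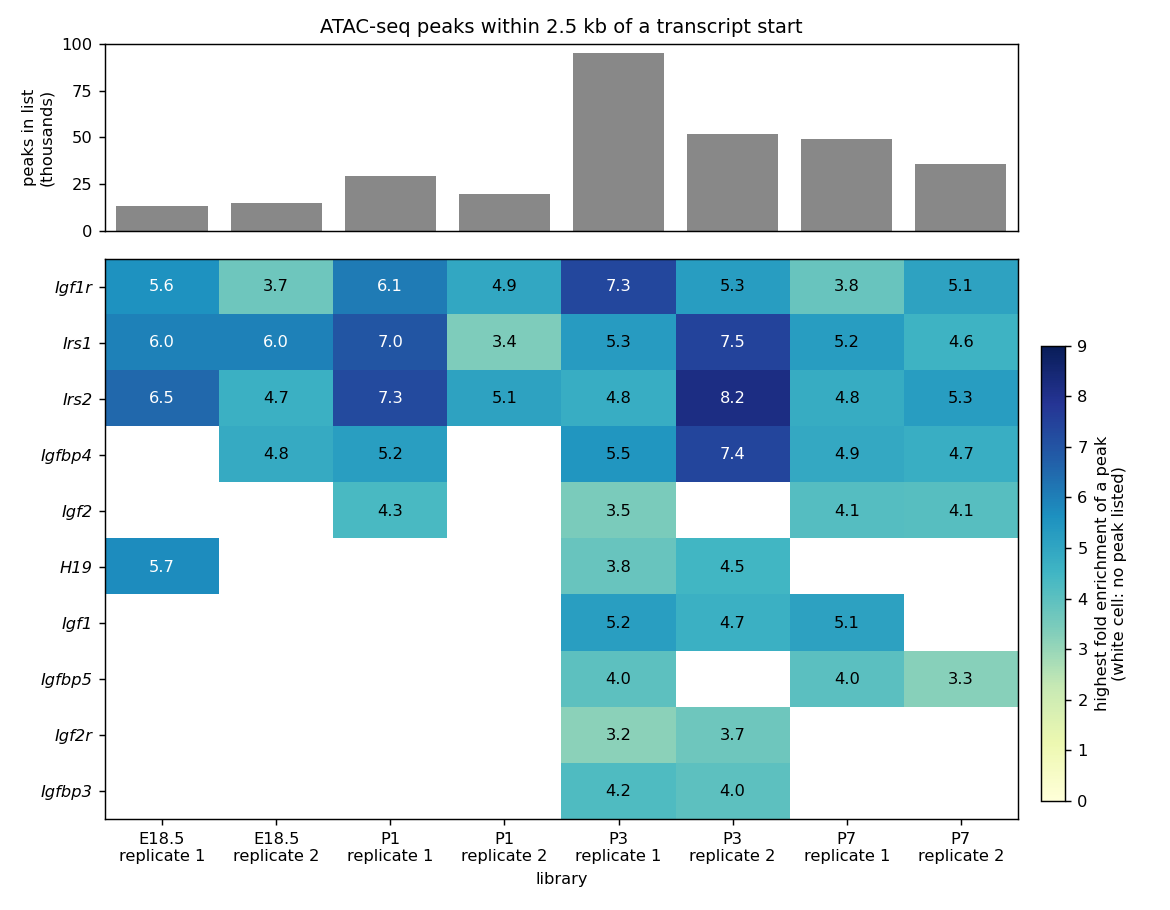
Highest fold enrichment of a peak within 2.5 kb of a transcript start (colour and printed value, white where no peak was listed) for each member (rows) in the 8 ATAC-seq libraries (columns), under bars that give the number of peaks in each list. Irs1, Irs2 and Igf1r are filled in all 8 columns, and P3 replicate 1, with the longest list, has all 10 members filled.

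Around Igf2 and H19, the peaks differed between libraries (the map of peaks by distance from the H19 start). At E18.5, where H19 was highest, replicate 1 held a peak 134 bases upstream of its start (chr7:142578277-142578537, fold enrichment 5.73) and replicate 2 did not. At P3, both libraries held a peak further upstream, at chr7:142580223-142580785 in replicate 1 (3.79-fold) and chr7:142580360-142580744 in replicate 2 (4.47-fold). The peak of replicate 1 covered the first and the second of the CTCF core matches printed above, the peak of replicate 2 lay between them and held neither, and the third match, at 3904 bases, lay in no peak of any library. No other library had a peak there.

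The CTCF core letters were found in 28 of 35039 promoter regions (0.0799%), a region being the merged peaks of all libraries within 2.5 kb of any start. Among 3266 of these with a width within 10% of the 563 bp of the H19 upstream region, 3 held the letters (0.0919%) and 1, the H19 region itself, held them more than once. Of the RefSeq promoters of 300 bases, 0.0365% held them. The pattern is free only at its N positions, so these shares leave out looser forms of a CTCF motif. The rarity of so strict a pattern elsewhere does not single out the H19 region. The AP-1 letters (TGANTCA) were in 3 of the 24 member regions (12.5%), those of H19 (2 matches), Igf1 and Igfbp3, and in 20.6% of all promoter regions, whose median width was 451 bp against 498 bp for the members. No conclusion about binding follows from a match or from its absence.

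Between the genes, a peak with its midpoint 67029 to 67111 bases upstream of the H19 start, on the Igf2 side, was held by 5 libraries, both of E18.5 (chr7:142644974-142645370 and chr7:142645098-142645291), P1 replicate 1 and both of P3, and by neither P7 library. Igf2 itself had a peak upstream of its most distal start, chr7:142667689-142668060, in P1 replicate 1, P3 replicate 1 and P7 replicate 2, and one in an intron, chr7:142660569-142660924, in P3 replicate 1 and P7 replicate 1. None of these Igf2 peaks was listed at E18.5, where its RNA was highest. In P1 replicate 2 the whole interval was without a peak.

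**Figure D4:**
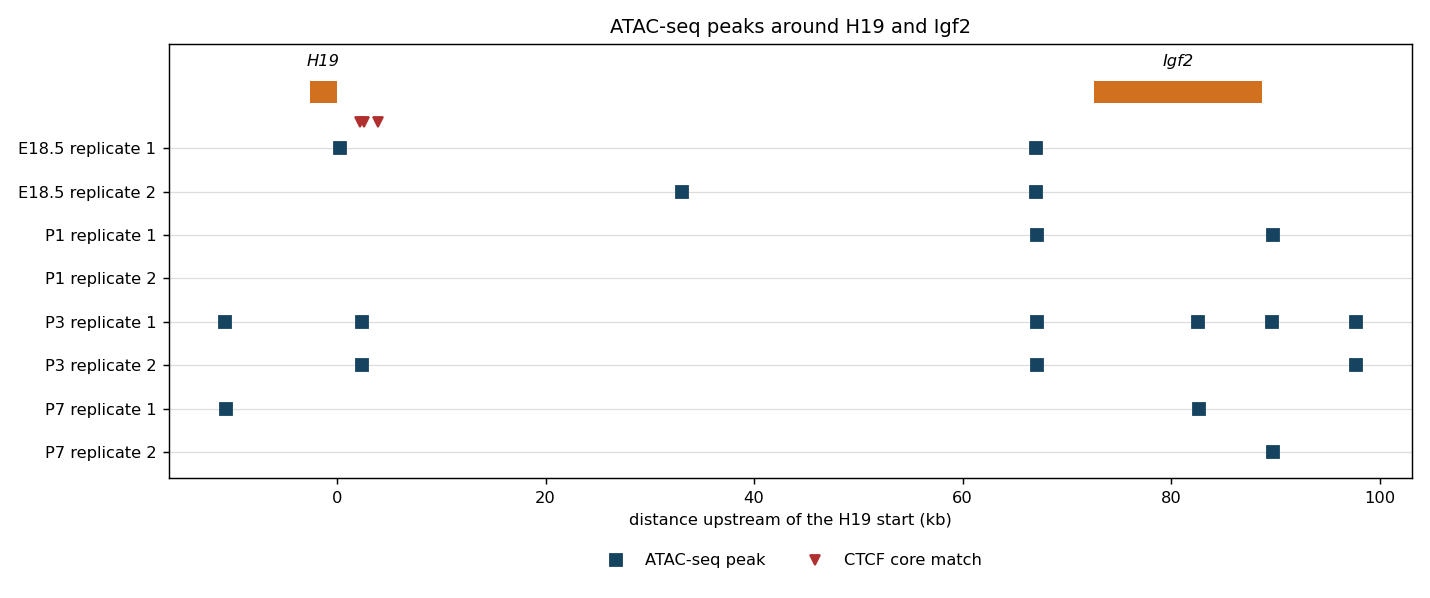
ATAC-seq peaks (squares, at their midpoints) in each library (rows) by distance upstream of the H19 start in kb (x axis), with both genes drawn as bars to scale and the CTCF core matches as triangles. The 2 P3 libraries alone have a peak at the first pair of triangles, and 5 libraries from E18.5 to P3 have one near 67 kb.

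The members also differed in base composition, which the choice of genes did not use. In RefSeq promoters of 300 bases, 9 of the 10 members were matched, with 12 promoters, 4 of them of Igf2. The 3 members with a peak in all libraries had 28 (Irs1), 41 (Irs2) and 48 (Igf1r) CpG dinucleotides, where the median of all promoters was 7. Igfbp3 (37), Igf2r (34) and Igfbp4 (27) were also rich in CpG and yet were listed in 2, 2 and 6 libraries. Igf1 had 6 and Igfbp5 had 10. The Igf2r promoter held 4 matches of the E-box letters, and among the 12 promoters those of Irs1 and Irs2 held both motifs.

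In the cultured rat cells, the second comparison asked what TSA changed. Igf2 was the member whose libraries stood furthest apart: it was at 36.2, 40.7 and 24.5 FPKM with DMSO and at 71.1, 67.4 and 57.0 with TSA (the plot of rat levels), so that every TSA library lay above every DMSO library. The log2 fold change was 0.95 (SE 0.20, a 1.93-fold difference), with an adjusted p of 0.0503 in limma. The exact permutation test over 20 splits gave p = 0.1, two-sided, the smallest it can give. Neither of these tests used the replicate numbers. With the replicate number as a block the adjusted p was 0.0275, but the size stayed under the threshold of 1, so Igf2 was not called. Replicates of the same number gave TSA to DMSO ratios of 1.96, 1.65 and 2.33. The adjusted p ran from 0.0275 to 0.191 over all alternatives.

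Igf1 was at 38.8, 39.0 and 23.4 FPKM with DMSO and at 51.7, 20.8 and 17.0 with TSA. The groups overlapped, and the log2 fold change of -0.30 (SE 0.41, limma adjusted p = 0.75) turned to 0.0028 without TSA replicate 3. The ratio of Igf2 to Igf1 in FPKM was 0.935, 1.04 and 1.05 with DMSO and 1.37, 3.23 and 3.35 with TSA, again without overlap.

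Igf2r was the most abundant member in all 6 rat libraries, at 179, 192 and 188 FPKM with DMSO and 192.5, 219 and 222 with TSA (log2 fold change 0.18, SE 0.10, limma adjusted p = 0.372). Irs1 was at 10.1, 10.04 and 9.93 FPKM with DMSO and 9.66, 8.80 and 8.05 with TSA (-0.17, SE 0.11, limma adjusted p = 0.455). In both genes the groups did not overlap, and the exact permutation p was 0.1 for each, the smallest possible. The share of all rat genes whose groups did not overlap was not counted. Irs2 was at 15.4, 14.6 and 14.6 FPKM with DMSO and 14.3, 15.8 and 24.4 with TSA. Igf1r lay between 7.67 and 10.6 FPKM in all 6 libraries, with a log2 fold change of 0.04 and a 95% interval from -0.28 to 0.37.

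None of the binding proteins was called with TSA, and their groups overlapped. Igfbp3 was at 67.4, 56.0 and 22.2 FPKM with DMSO and 60.8, 41.9 and 68.1 with TSA. Igfbp4 was at 43.3, 51.3 and 24.3 FPKM with DMSO and 50.1, 47.5 and 29.9 with TSA. Igfbp5 was at 11.99, 16.5 and 3.56 FPKM with DMSO and 10.5, 10.6 and 2.83 with TSA, so replicate 3 was the lowest library of both groups for Igfbp4 and Igfbp5. Within pairs of the same number, Igfbp5 was lower with TSA in 3 of 3 (ratios 0.875, 0.644 and 0.795), with a log2 fold change of -0.34 and, with the replicate block, an adjusted p of 0.177 by limma (0.177 to 0.98 over all alternatives). The value turned to 0.06 without DMSO replicate 2 and to 0.19 without TSA replicate 3. The sum of 9 smooth muscle and pericyte markers was 2397 FPKM in DMSO replicate 3 and 1627 in TSA replicate 3, against 661 to 975 in the other libraries, and its part in these values was not tested. Without DMSO replicate 3 the log2 fold changes of Igfbp3 (0.34) and Igfbp4 (0.13) turned to -0.14 and -0.18.

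In all, 0 of 9 members were called with TSA by limma or by limma-voom. By limma, 2.13% of all 13625 genes were called. An unadjusted limma p under 0.05 was held by 1 member (Igf2) and by 2699 of all genes. Of the 61 further pathway genes, 56 were tested in rat and none was called. The members' median log2 fold change was 0.13, beside 0.03 for all genes. The sum of 9 fibroblast markers was 6386 to 6934 FPKM with DMSO and 3567 to 5967 with TSA, and that of 7 macrophage markers 483 to 1019 and 402 to 534, with none of either list called, while 1 endothelial marker (Cldn5), 1 smooth muscle or pericyte marker (Rgs5) and 1 epicardial marker (Upk1b) were called higher, all 3 named after their values were seen. Sums of 9 cardiomyocyte markers were 5293 to 6436 and 6422 to 7807 FPKM, of 7 endothelial markers 14.4 to 20.5 and 21.2 to 25.9, of 5 erythroid markers 4.18 to 25.5 and 32.3 to 55.7, and of 6 epicardial markers 8.14 to 9.92 and 9.50 to 14.8. Their part in the rat results was not tested.

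**Figure D5:**
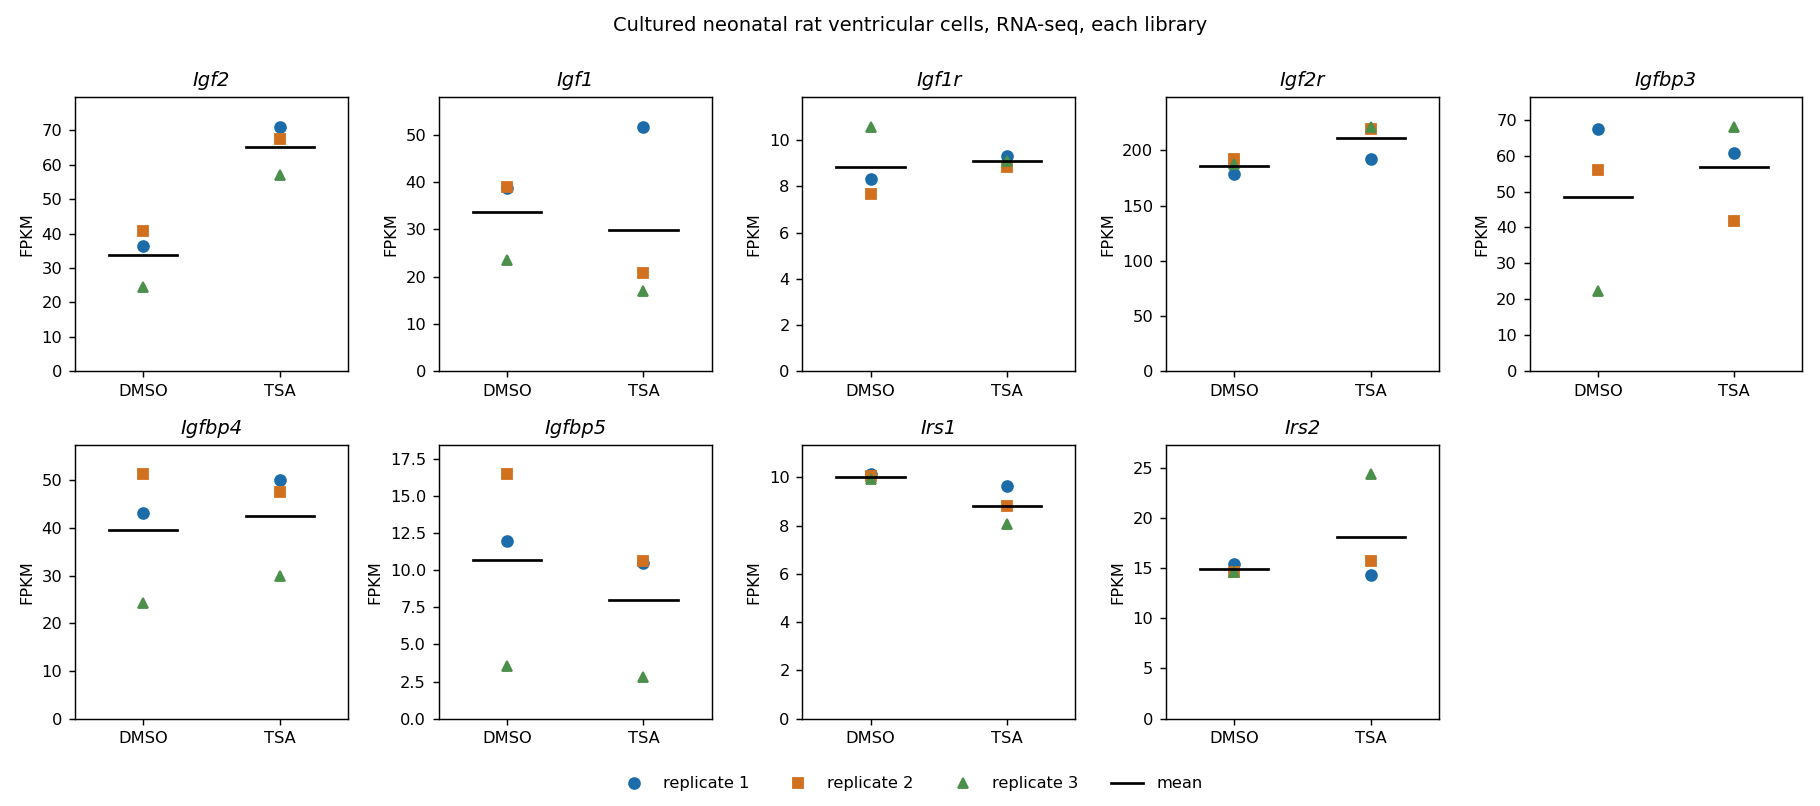
FPKM of the 9 members matched in rat (y axis, linear from 0, with its own range in each panel) in the 3 DMSO and 3 TSA libraries (x axis); symbols are the replicate numbers and bars the means. Igf2 is the panel in which all TSA libraries, from 57.0 to 71.1, lie well above all DMSO libraries, from 24.5 to 40.7.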

How the data were processed

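The members and all gene lists were chosen with earlier results of these data known. The authors aligned RNA-seq reads with HISAT2 (2.1.0) and ran StringTie (1.3.5 for mouse, 1.3.4d for rat, per the file headers). Each deposited RNA-seq file lists, by transcript, the FPKM and TPM that StringTie normalized for the authors, and coverage (mean read depth over its bases), deposited without normalization. The authors tested counts with edgeR, and counts were not used here. The authors called peaks per library with MACS2 on mm10. In these lists the deposited score ranks the peaks, the deposited fold enrichment is the ratio of signal to background, and 2 columns hold the authors' −log10 p and −log10 q.

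Gene FPKM was the sum over transcripts. Reads were estimated as coverage times transcript length over 150 bases. Genes with 1 FPKM or more in 2 mouse or 3 rat libraries were tested on log2(FPKM + 1) with limma (3.58.1, R 4.3.3; lmFit and eBayes with a trend, two-sided, Benjamini-Hochberg), all time points fitted together. Calls needed an adjusted p below 0.05 together with a log2 fold change beyond 1 in size. A fold change on this scale understates changes of low genes. With 2 libraries per mouse group and 3 per rat group, p measures the spread between these libraries. Statements that groups did not overlap describe these libraries only, and the share of all genes with such groups was not counted. An unadjusted limma p under 0.05 against E18.5 was held by 7012, 7764 and 8447 of the 13979 mouse genes at P1, P3 and P7. In rat, deviations of same-numbered libraries from their group means correlated at 0.224, 0.194 and 0.346. Those of unlike numbers correlated at -0.270 to 0.167. The numbers were taken to pair DMSO and TSA only in the replicate block and in the ratios within pairs. The main fit and the permutation test did not use them.

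All 10 members were named. In each pathway list the 3 called genes with the largest change at P7 and with TSA were named. Alternatives were a pseudocount of 0.1, no filter, a stricter filter (mean FPKM of 5), median-of-ratios size factors, TPM, limma-voom, a replicate block, only the time points compared, other peak windows (1 and 5 kb), score limits and start sites, and each library left out. Promoter sequences and the genome came from RefSeq (GRCm38.p6), the assembly of mm10, and annotation from GENCODE vM21. The 6 HiChIP libraries were not analysed here.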

Additional observations from a re-analysis of the deposited data

How the results depend on the processing

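Of 705 values of 46 single-gene results under the alternatives, 634 kept both direction and call, 40 lost a call, 21 gained one and 10 turned in direction, none of the 10 being called. These were Irs1 at P1 with TPM (0.12) and, in rat, Igf1r with TPM (-0.0213) and with size factors (-0.0048) and 7 values with a library left out, where the ranges were -0.77 to 0.0028 for Igf1, -0.0425 to 0.17 for Igf1r, -0.14 to 0.64 for Igfbp3, -0.18 to 0.36 for Igfbp4 (-0.0056 without TSA replicate 1) and -0.91 to 0.19 for Igfbp5 (0.0555 without DMSO replicate 2).

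Members called at P1 against E18.5 numbered 3 (without E18.5 replicate 1) to 6 with 1 library left out. Between P1 and P7 the number was 2 with a pseudocount of 0.1 and in limma-voom, 0 without the filter, and 0 to 2 with 1 library left out. Between P3 and P7 it was 1 with a pseudocount of 0.1 and in limma-voom, 0 with TPM and without the filter, and 0 to 3 with 1 library left out. Members with a promoter peak numbered 1 at E18.5 and 4 at P3 in the upper 0.5 of each list, 1 at P3 and 2 at P7 with lists of equal length, and 3 or 5 in single P1 libraries. The cause of these shifts, beyond shorter lists and fewer libraries, was not tested. Over all genes, the 496 calls between P3 and P7 became 15 without the filter, 23 and 26 without P3 replicate 1 or 2, and 106 without P7 replicate 2. The 2 calls between P1 and P3 ranged from 0 to 35. The 290 calls with TSA became 79 with the stricter filter and 33 to 458 with 1 library left out.

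In mouse, the correlations of same-numbered libraries ran from -0.096 to 0.171, so the numbers were not taken as pairs. With a replicate block the genes called were 0 between P1 and P3 and 447 between P3 and P7. The members called were 5, 4 and 6 against E18.5, as without the block, and 2 between P3 and P7, where Igfbp3 had an adjusted p of 0.069 by limma (0.0144 to 0.281 over all alternatives). In rat the block called 339 genes and 0 members, so it changed no member's call there.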
